A study of Mus musculus with 2 samples.

Results

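The 40 genes described here encode nuclear subunits of the 5 enzyme complexes of oxidative phosphorylation and cytochrome c. They were the rows of the deposited expression table whose symbol matched a listed subunit, and all 40 were found among 26037 genes. Complex I was represented by 13 genes, complex II by 4, complex III with cytochrome c by 6, complex IV by 9 and complex V by 8. Polyadenylated RNA was sequenced from cultures labelled MMP9_KO and Control, with 1 library per group. Both groups were primary cells of C57BL/6 mice: marrow was taken at an age of 6 to 8 weeks and cultured with 10% serum and 5 ng/ml M-CSF, non-adherent cells were kept in 30 ng/ml M-CSF over 3 days, and the macrophages that had attached received RANKL for a further 3 days. The cytokine RANKL drives macrophages to fuse into osteoclasts, which dissolve bone, and these cells make much MMP9, a secreted protease of the matrix metalloproteinase family. The table headings add the letters "sh" to MMP9_KO and "NCsh" to Control. The sources used here do not say whether Mmp9 was deleted or silenced, nor how many mice gave the marrow.

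Complexes I and II pass electrons from NADH and succinate to coenzyme Q, complex III passes them to cytochrome c, and complex IV passes them to oxygen. Complexes I, III and IV pump protons across the inner mitochondrial membrane, and complex V, the ATP synthase, uses the returning protons to make ATP. Osteoclasts are rich in mitochondria, and expression of respiratory chain genes is known to increase while macrophages become osteoclasts. Nuclear genes of the chain share regulators, among them NRF1, the ETS factor GABP and the receptor ERRα with its coactivator PGC-1β.

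Levels are normalised read counts, that is, whole reads multiplied by 1 factor per library and not divided by gene length, so levels of different genes are not compared. The log2 ratio is that of MMP9_KO plus 1 over Control plus 1, and a gene counted as lower or higher when this ratio reached 2-fold. Folds beside the levels use no added value, and their parentheses hold exact 95% intervals for counting error only. The MMP9_KO library held 17741432 reads and the Control library 20678441. With 1 library per group no test between the groups was possible and no difference has a replicate check. Mmp9 was 3.87 in MMP9_KO and 139 in Control, 35.99-fold lower (30.8 to 42.3). Of 11126 compared genes, those with a mean level of at least 1, 445 were higher and 1066 lower, which makes 29.5% of the genes past 2-fold higher ones. That share was 41.7% with the median ratio set to 0, 42.02% with a trimmed mean of ratios and 50.3% with equal library sums, and it was 44.6%, 41.8% and 43.6% after centring in bins of GC content, transcript length and both. The median log2 ratio of all compared genes was -0.16.

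The cell type label was checked on markers. All 10 osteoclast markers were lower in MMP9_KO, with a summed level of 395 in MMP9_KO and 6824 in Control. The 10 and the sums include Mmp9, the gene that the label names, whose lower level says nothing on cell type. Ctsk, the collagen-degrading cathepsin K, was 42.9 in MMP9_KO and 3745 in Control, and Acp5, tartrate-resistant acid phosphatase, was 114 in MMP9_KO and 1828 in Control. Of 7 compared macrophage markers 5 were higher and 1 was lower, and the 8 listed ones summed to 1362 in MMP9_KO and 1008 in Control. The ratios of the osteoclast list ran from that of Ctsk to that of the transcription factor Nfatc1, at 177 in MMP9_KO and 378 in Control, and the integrin gene Itgb3 was 0.475 in MMP9_KO and 45.8 in Control. Adgre1, the F4/80 antigen, was 50.5 in MMP9_KO and 2.46 in Control, and Cd14 was 166 in MMP9_KO and 15.5 in Control. The lower macrophage marker was Cd68, at 60.9 in MMP9_KO and 150.2 in Control, while Csf1r, the M-CSF receptor, was 564 in MMP9_KO and 751 in Control. The part of these marker differences in the results below was not tested. Markers of neutrophils, B cells, T and NK cells, erythroid cells and stromal cells summed to between 0 and 0.428 in MMP9_KO and between 0 and 0.398 in Control, and none reached the level for comparison. In bulk cultures, fewer cells of a type and less RNA per cell cannot be told apart.

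Every one of the 40 subunit genes had a lower level in MMP9_KO than in Control with the values as deposited. Of the 40, 19 were lower by at least 2-fold, none was higher and 21 were within 2-fold, that is 47.5% lower beside 9.58% of all compared genes. All had a mean level of at least 8.67 and passed the filter on low values. Their median log2 ratio was -0.97, or -0.81 relative to the median of all compared genes, and the ratios ran from -1.72 for Ndufb10 to -0.42 for Ndufa2. A log2 ratio below 0 was found for 62.7% of all compared genes, and one at or below the members' median for 10.1%. Among the 7621 compared genes whose mean level lay in the range of the 40, 9.13% were at least 2-fold lower, 62.6% had a ratio below 0 and the median was -0.16. The summed level of the 40 genes was 2879 in MMP9_KO and 5543 in Control. The count depended on scaling and on transcript properties: 6 of 40 were lower with equal library sums, beside 6.09% of all compared genes, while centring in bins of GC content left 11, beside 6.28% of all compared genes, of length 6, beside 6.86%, and of both 7, beside 6.31%.

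**Figure D1:**
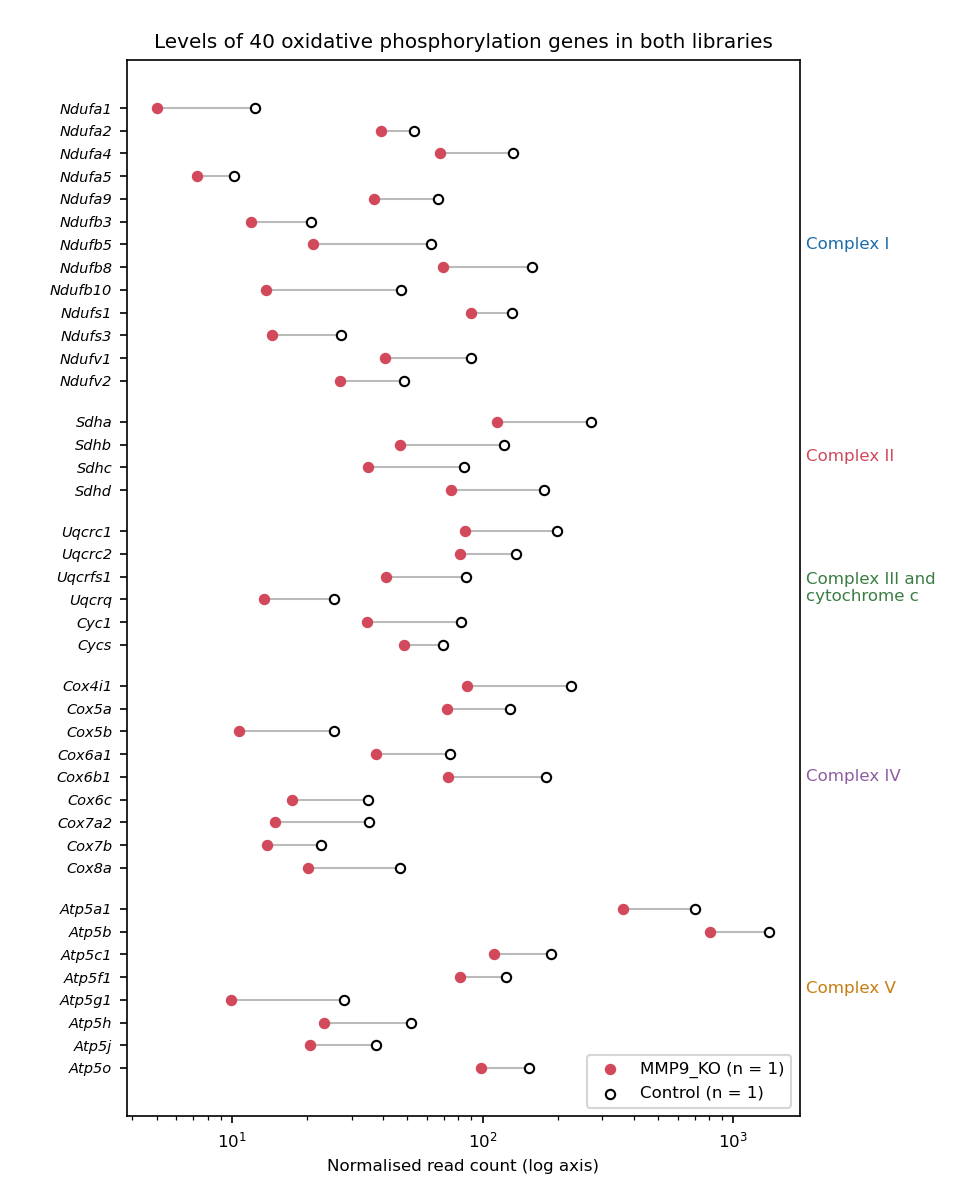
Normalised read count (log axis) of each of the 40 genes in the MMP9_KO library (filled) and the Control library (open), grouped by complex, with 1 library per group and a grey line joining the 2 values of a gene. In all 40 rows the MMP9_KO point lies left of the Control point.

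The promoters of genes that differed in the same direction are shown first, since several regulators of the chain bind there. RefSeq gave a 300-base window on GRCm38.p6, from 250 bases before to 50 after the start, for 31 of the 40 genes. The stretches below hold the 120 bases before a listed start, 5′ to 3′ on the strand of the gene. By the gene bounds of another annotation, GENCODE M21, the Ndufa5 stretch lies wholly inside its gene. All other stretches but that of Sdhd reach into their gene in part. The upper 5 are the genes with a match to the NRF1 motif inside this stretch, and the capitals mark the match. The lower 2, Ndufb10 and Ndufb5, had the lowest log2 ratios of the 40 and hold no match in the stretch.
Ndufa5, chr6:24527691-24527810, minus strand: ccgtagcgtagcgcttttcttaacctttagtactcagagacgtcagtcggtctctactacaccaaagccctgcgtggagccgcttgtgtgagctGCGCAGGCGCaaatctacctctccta
Sdha, chr13:74350241-74350360, minus strand: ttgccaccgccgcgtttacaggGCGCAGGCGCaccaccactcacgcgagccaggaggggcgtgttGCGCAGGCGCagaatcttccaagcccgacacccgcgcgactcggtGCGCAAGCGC
Sdhd, chr9:50603850-50603969, minus strand: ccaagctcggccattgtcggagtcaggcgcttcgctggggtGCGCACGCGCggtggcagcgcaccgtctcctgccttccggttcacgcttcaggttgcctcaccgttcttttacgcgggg
Cox6a1, chr5:115348959-115349078, minus strand: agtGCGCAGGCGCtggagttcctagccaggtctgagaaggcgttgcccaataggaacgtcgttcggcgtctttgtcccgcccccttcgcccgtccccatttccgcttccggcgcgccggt
Atp5c1, chr2:10080433-10080552, minus strand: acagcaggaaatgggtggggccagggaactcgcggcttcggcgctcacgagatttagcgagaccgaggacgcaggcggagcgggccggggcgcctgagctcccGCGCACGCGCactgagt
Ndufb10, chr17:24724424-24724543, minus strand: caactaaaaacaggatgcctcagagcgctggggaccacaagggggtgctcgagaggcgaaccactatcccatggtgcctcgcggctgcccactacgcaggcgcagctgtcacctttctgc
Ndufb5, chr3:32736943-32737062, plus strand: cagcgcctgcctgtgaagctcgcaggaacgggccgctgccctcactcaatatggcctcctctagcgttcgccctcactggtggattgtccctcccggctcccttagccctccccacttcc

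Searched on both strands over the whole windows, the NRF1 motif lay in 26.5% of the 34 windows of these genes, beside 4.60% of all 32851 windows and 10.9% of the 9684 windows of compared genes. The 8 genes with the motif had a median log2 ratio of -1.05, and the other genes with a window had a median of -1.04. Of the printed genes, Sdha with 3 matches in its stretch had a log2 ratio of -1.24, and Ndufa5 with 1 match had -0.44. The ETS motif CCGGAAG lay in 23.5% of the windows of these genes, 8.86% of all and 18.9% of those of compared genes. The YY1 motif AANATGGCG lay in 8.82%, 2.38% and 5.56%. The ERR motif TCAAGGTCA lay in 1 member window, that of Sdhd, beside 0.423% of all windows and 0.279% of those of compared genes. The GC box GGGCGG lay in 44.1% of the windows of these genes, 35.7% of all and 63.1% of those of compared genes. Of 51 matches in the members' windows, 1 pair from different motifs overlapped. Ndufa5 has overlapping windows, so the 51 and the window shares count its NRF1 match and its GC box in each of them. Counted by gene, the NRF1 motif lay in 8 of the 31 genes with a window (25.8%). A match is only a run of letters in this window and not a bound site.

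Complex I takes electrons from NADH in an arm that reaches into the matrix and pumps protons in an arm within the membrane. Of its 13 genes 5 were at least 2-fold lower, beside 9.58% of all compared genes, and 8 lay within 2-fold, with a median log2 ratio of -0.88. The summed level was 444 in MMP9_KO and 857 in Control.

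Among the core subunits of the matrix arm, Ndufv1, which binds NADH and the flavin that first takes its electrons, was 40.9 in MMP9_KO and 89.8 in Control, 2.20-fold lower (2.08 to 2.33). Ndufv2, an iron-sulphur subunit beside it, was 26.8 in MMP9_KO and 48.4 in Control, 1.80-fold lower (1.67 to 1.94). Ndufs1, the largest subunit and a carrier of iron-sulphur clusters, was 90.2 in MMP9_KO and 131 in Control, 1.45-fold lower (1.39 to 1.51). Of this trio, which forms the NADH-oxidising tip, Ndufv1 passed 2-fold, but not with any other scaling or after any centring. With GC bins its log2 ratio was -0.69, that of Ndufv2 -0.89 and that of Ndufs1 -0.52. Ndufs3, a core subunit of the part that leads to coenzyme Q, was 14.4 in MMP9_KO and 27.3 in Control, 1.90-fold lower (1.72 to 2.10).

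Accessory subunits surround this core. Ndufa9, which lies where the arms meet, was 36.9 in MMP9_KO and 66.2 in Control, 1.79-fold lower (1.69 to 1.91). Ndufa2 was 39.3 in MMP9_KO and 53.1 in Control, 1.35-fold lower (1.27 to 1.44), the least of the 40. Ndufa5 was 7.22 in MMP9_KO and 10.1 in Control, 1.40-fold lower (1.21 to 1.63). These 2 small matrix-arm subunits had the ratios nearest to 0 of all members, and Ndufa2 turned to a log2 ratio of 0.079 after centring by transcript length.

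The membrane arm held the lowest ratios of the set. Ndufb10, an accessory subunit that faces the intermembrane space, was 13.7 in MMP9_KO and 47.3 in Control, 3.47-fold lower (3.16 to 3.81). Ndufb5 was 20.98 in MMP9_KO and 62.0 in Control, 2.95-fold lower (2.73 to 3.19). Both are small structural subunits of the part of the arm farthest from the matrix arm. Both stayed lower by at least 2-fold under all 10 processing alternatives that give single-gene values, although changing the filter cannot move these values. With log2 ratios of -1.72 and -1.52, no scaling (at most 0.29) and no smaller added value could have brought them within 2-fold. Only a larger added value and the centrings could have done so. Ndufb8, of the same part of the arm, was 69.2 in MMP9_KO and 157 in Control, 2.26-fold lower (2.17 to 2.37). Ndufb3 was 11.9 in MMP9_KO and 20.7 in Control, 1.74-fold lower (1.55 to 1.95), and was the membrane-arm member within 2-fold. Ndufa1, a small X-linked subunit needed for assembly of the complex, was 5.04 in MMP9_KO and 12.3 in Control, 2.44-fold lower (2.08 to 2.88), on 212 and 495 reads, the fewest MMP9_KO reads of any member.

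Set side by side, 4 of 5 membrane-arm genes and 1 of 7 matrix-arm genes were at least 2-fold lower, beside 9.58% of all compared genes. The median log2 ratios of the arms were -1.17 and -0.83, in the same order. Their ranges overlapped, from -1.72 to -0.75 in the membrane arm and from -1.12 to -0.42 in the matrix arm, and the difference between the arms was not tested. Under each other scaling the counts were 2 of 5 and 0 of 7, beside 6.09% to 7.14% of all compared genes. After centring by GC content, length and both, the membrane arm had 4, 3 and 3 of 5, and the matrix arm again had 0 each time. The shares of all compared genes were then 6.28%, 6.86% and 6.31%. Over the alternatives the membrane-arm median lay between -1.27 and -0.90 and the matrix-arm median between -0.84 and -0.46. Ndufa4, first assigned to complex I and now known as a subunit of complex IV, was 67.6 in MMP9_KO and 132 in Control, 1.96-fold lower (1.87 to 2.05).

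**Figure D2:**
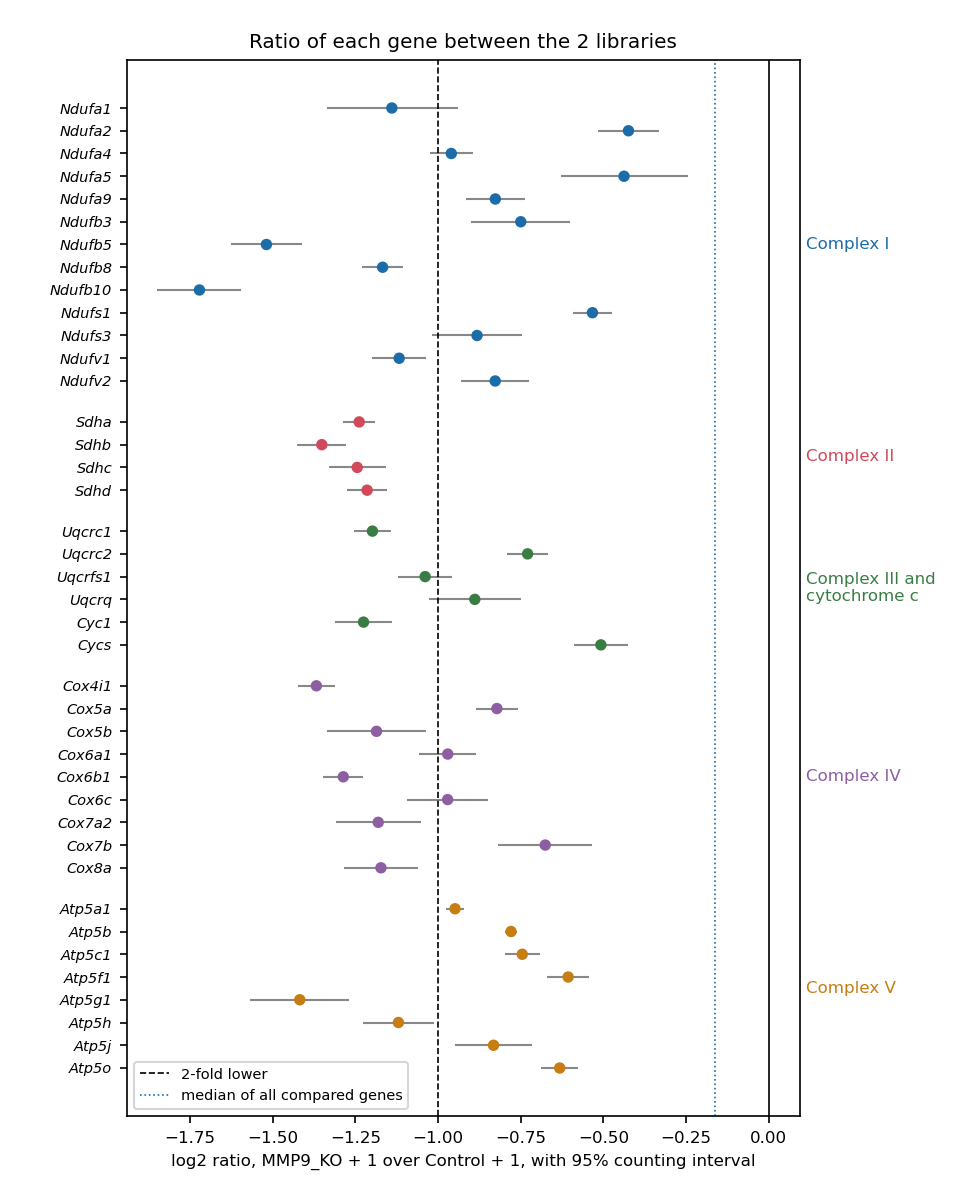
Log2 ratio of MMP9_KO plus 1 over Control plus 1 for each gene, grouped and coloured by complex, with bars for the 95% interval of counting error only and 1 library per group. The dashed line marks 2-fold lower and the dotted line the median of all compared genes (-0.16), and all 40 points lie left of the dotted line, with the 4 genes of complex II close together.

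Complex II, or succinate dehydrogenase, also works in the citric acid cycle and is the complex whose subunits are all encoded in the nucleus. All 4 of its genes were at least 2-fold lower, beside 9.58% of all compared genes. They lay close together, from -1.35 to -1.21 on the log2 scale. Sdha, the flavoprotein that oxidises succinate, was 114 in MMP9_KO and 271 in Control, 2.37-fold lower (2.29 to 2.45). Sdhb, the iron-sulphur subunit, was 47.0 in MMP9_KO and 121 in Control, 2.58-fold lower (2.45 to 2.72). These form the catalytic part, and the membrane anchor that binds coenzyme Q had like values. Its subunit Sdhc was 34.9 in MMP9_KO and 84.0 in Control, 2.41-fold lower (2.26 to 2.56). The other anchor subunit, Sdhd, was 74.9 in MMP9_KO and 175 in Control, 2.34-fold lower (2.24 to 2.44). With equal library sums 1 of the 4 passed 2-fold, and after centring by length 2 did, beside 6.09% and 6.86% of all compared genes.

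Of the 6 genes of complex III and cytochrome c, 3 were at least 2-fold lower, beside 9.58% of all compared genes. The other 3 lay within 2-fold, and the median of the 6 was -0.96. Cyc1, cytochrome c1, which hands electrons to cytochrome c, was 34.5 in MMP9_KO and 81.9 in Control, 2.38-fold lower (2.23 to 2.53). Uqcrfs1, the Rieske iron-sulphur protein, was 41.2 in MMP9_KO and 85.7 in Control, 2.08-fold lower (1.96 to 2.21). Of the core proteins that face the matrix, Uqcrc1 was 85.3 in MMP9_KO and 197 in Control, 2.31-fold lower (2.22 to 2.40), and its partner Uqcrc2 was 81.3 in MMP9_KO and 135 in Control, 1.67-fold lower (1.60 to 1.74). Their log2 ratios of -1.20 and -0.73 came to -0.82 and -0.71 after centring by GC content, and to -0.69 each with bins of both GC content and length. Uqcrq, a small subunit of the membrane part, was 13.4 in MMP9_KO and 25.6 in Control, 1.92-fold lower (1.73 to 2.13). Cycs, cytochrome c itself, which carries electrons to complex IV and triggers cell death when released, was 48.6 in MMP9_KO and 69.5 in Control, 1.43-fold lower (1.35 to 1.52), the least in this group. None of the 6 passed 2-fold with equal library sums or after any of the centrings.

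Complex IV, cytochrome c oxidase, reduces oxygen. Its nuclear subunits surround a catalytic core made in the mitochondrion. Of 9 genes, 5 were at least 2-fold lower, beside 9.58% of all compared genes, and 4 lay within 2-fold, with a median of -1.17. Cox4i1, the subunit through which ATP inhibits the enzyme, was 86.2 in MMP9_KO and 224 in Control, 2.60-fold lower (2.50 to 2.70). Cox6b1, which faces the intermembrane space where cytochrome c docks, was 72.5 in MMP9_KO and 178 in Control, 2.46-fold lower (2.36 to 2.57). Cox5b, a zinc-binding subunit on the matrix side, was 10.7 in MMP9_KO and 25.5 in Control, 2.39-fold lower (2.14 to 2.68). Cox5a, its neighbour on the matrix side, was 72.0 in MMP9_KO and 128 in Control, 1.78-fold lower (1.70 to 1.86). Cox5b did not pass 2-fold with a pseudocount of 5, with equal sums or with bins of length or of both.

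The remaining subunits of complex IV are small proteins that cross the membrane. Cox7a2 was 14.9 in MMP9_KO and 35.0 in Control, 2.35-fold lower (2.14 to 2.59). Cox8a was 20.1 in MMP9_KO and 46.7 in Control, 2.32-fold lower (2.13 to 2.52). Around the threshold, Cox6a1 was 37.4 in MMP9_KO and 74.2 in Control, 1.99-fold lower (1.87 to 2.11), and Cox6c, at 17.3 in MMP9_KO and 34.9 in Control, was 2.02-fold lower (1.84 to 2.21) but had a log2 ratio of -0.97 with the added 1. Cox6a1 and Cox6c were the nearest members outside the threshold, and Uqcrfs1, at -1.04, the nearest inside. Cox7b, on the X chromosome, was 13.8 in MMP9_KO and 22.6 in Control, 1.64-fold lower (1.48 to 1.82). Of this complex 2 genes passed 2-fold after centring by GC content, beside 6.28% of all compared genes, and none after centring by length.

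Several subunits of complex IV have copies used mainly in muscle, testis or low oxygen. The muscle forms Cox6a2, Cox7a1 and Cox8b, the testis forms Cox6b2 and Cyct (cytochrome c), the lung and low-oxygen form Cox4i2 and the low-oxygen gene Ndufa4l2 all stayed under the level for comparison. Their highest values were 0.238 in MMP9_KO, for Cox6a2, and 0.596 in Control, for Cox7a1, which rests on 24 reads. Their paralogs among the members are the forms found in most tissues.

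Complex V joins a catalytic head, F1, to a rotor and a membrane part by a central shaft and a peripheral stalk. Of its 8 genes 2 were at least 2-fold lower, beside 9.58% of all compared genes, and 6 lay within 2-fold, with a median of -0.81. The count was 1 under each other scaling and each centring, beside 6.09% to 7.14% of all compared genes. The 3 members in F1 were all within 2-fold. Atp5b, the catalytic beta subunit, was 807 in MMP9_KO and 1386 in Control, 1.72-fold lower (1.69 to 1.74). Atp5a1, the alpha subunit, was 363 in MMP9_KO and 702 in Control, 1.93-fold lower (1.89 to 1.97). Atp5c1, the gamma subunit of the turning shaft, was 111 in MMP9_KO and 187 in Control, 1.68-fold lower (1.62 to 1.75). The log2 ratios of these 3 genes ran from -0.95 to -0.75, whereas Atp5d, an F1 subunit outside the 40, had -1.40.

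The peripheral stalk holds the head still while the rotor turns. Atp5f1, its subunit b, was 81.3 in MMP9_KO and 124 in Control, 1.53-fold lower (1.46 to 1.60). Atp5o, which caps the stalk on the head and confers oligomycin sensitivity, was 98.5 in MMP9_KO and 153 in Control, 1.56-fold lower (1.495 to 1.62). Atp5j, coupling factor F6, was 20.5 in MMP9_KO and 37.4 in Control, 1.82-fold lower (1.67 to 1.98). Atp5h, subunit d of the same stalk, was 23.2 in MMP9_KO and 51.6 in Control, 2.22-fold lower (2.06 to 2.40). It was the stalk member past 2-fold, but under each other scaling and each centring no stalk member was.

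The rotor ring is built from subunit c, and in mammals Atp5g1, Atp5g2 and Atp5g3 encode the same mature protein behind different import signals. Atp5g1, a member, was 9.88 in MMP9_KO and 28.1 in Control, 2.84-fold lower (2.54 to 3.19), and stayed lower by at least 2-fold under all 10 alternatives. At a log2 ratio of -1.42, only a larger added value and the centrings could have brought it within 2-fold. Length bins, where its log2 ratio was -1.30, placed it by its longest transcript. That transcript has 4715 bases, beside a median of 1111 for the 40 genes. Atp5g3 was 148 in MMP9_KO and 298 in Control, 2.01-fold lower (1.95 to 2.07). Atp5g2 was 34.5 in MMP9_KO and 56.1 in Control, 1.62-fold lower (1.52 to 1.74). The genes for this protein were thus all lower in MMP9_KO, with Atp5g1 the lowest in ratio.

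The other nuclear subunits, which were not members, were also lower in MMP9_KO. Among 40 such genes 17 were at least 2-fold lower, beside 9.58% of all compared genes. None was higher and 23 were within 2-fold, with a median of -0.86, and each had a log2 ratio below 0. In complex I 9 of 24 were lower, in complex III 3 of 4, in complex IV none of 2 and in complex V 5 of 10. Uqcrh, the hinge protein of complex III, was 30.0 in MMP9_KO and 108 in Control, 3.60-fold lower (3.38 to 3.83), and Uqcr10 was 12.3 in MMP9_KO and 36.0 in Control. Ndufs7, a core iron-sulphur subunit of complex I, was 19.4 in MMP9_KO and 61.9 in Control, 3.19-fold lower (2.94 to 3.45). Ndufc1 was 1.76 in MMP9_KO and 6.78 in Control, 3.86-fold lower (2.97 to 5.06). Atp5d, the delta subunit of F1, was 30.9 in MMP9_KO and 83.4 in Control, 2.70-fold lower (2.53 to 2.88), and Atp5k was 4.01 in MMP9_KO and 10.6 in Control. Among these subunits outside the 40, the highest ratios within their complexes were those of 4 genes. Ndufb2 was 14.3 in MMP9_KO and 17.3 in Control, Atpif1, an inhibitor of the ATP synthase, was 46.6 in MMP9_KO and 56.0 in Control, Uqcrb was 12.7 in MMP9_KO and 25.3 in Control, and Cox7c was 48.6 in MMP9_KO and 68.0 in Control. The supercomplex gene Cox7a2l was 53.6 in MMP9_KO and 93.4 in Control. The count was 8 with equal sums and with GC bins, beside 6.09% and 6.28% of all compared genes, and 4 with length bins, beside 6.86%. With bins of both it was 2 of 40, beside 6.31% of all compared genes and 7 of the 40 members. With length bins 36 of the 40 ratios lay below 0. The 13 subunits encoded in mitochondrial DNA were listed at 0 in both libraries, so they give no information.

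**Figure D3:**
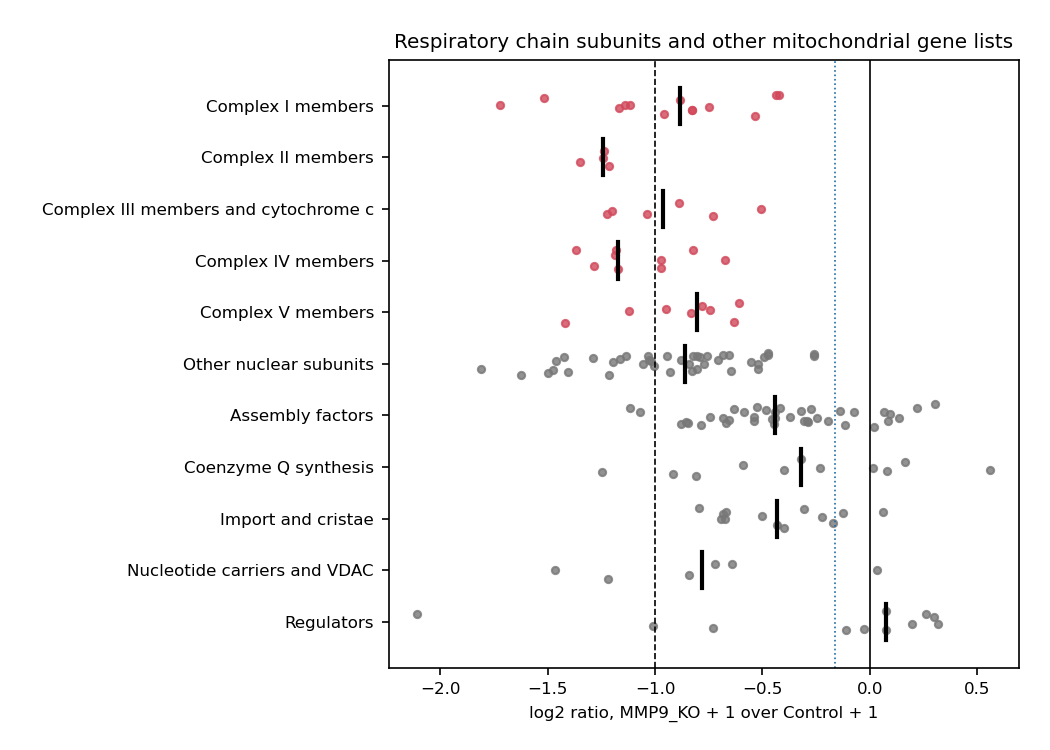
Log2 ratio of MMP9_KO plus 1 over Control plus 1 for compared genes (points, spread vertically at random) in the complexes (red) and in other mitochondrial gene lists (grey), with a black bar at each median and 1 library per group. The dashed line marks 2-fold lower and the dotted line the median of all compared genes. The medians are -0.88, -1.24, -0.96, -1.17 and -0.81 for complexes I to V in order. They are -0.86 for other subunits, -0.44 for assembly factors and 0.077 for regulators. The 40 genes together, not drawn as a row, had a median of -0.97.

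Genes that build the complexes lay nearer to the median of all genes than the subunits did. Of 39 compared assembly factors 2 were lower by at least 2-fold, beside 9.58% of all compared genes. None was higher and 37 were within 2-fold, with a median of -0.44. Both lower ones act on complex IV, and none of the 39 was lower with a pseudocount of 5, with any other scaling or after any centring. Cox14 was 13.7 in MMP9_KO and 30.9 in Control, 2.26-fold lower (2.04 to 2.50), and Cox11, which delivers copper, was 1.90 in MMP9_KO and 5.09 in Control, 2.68-fold lower (2.06 to 3.52). Cox18, which inserts a core subunit into the membrane, was 7.82 in MMP9_KO and 6.14 in Control. For complex I, Ecsit was 9.76 in MMP9_KO and 18.3 in Control, Timmdc1 was 5.92 in MMP9_KO and 9.99 in Control, and Ndufaf7 was 4.13 in MMP9_KO and 3.40 in Control. For complexes II and III, Uqcc1 was 12.6 in MMP9_KO and 24.0 in Control, Sdhaf1 was 4.11 in MMP9_KO and 7.21 in Control, and Sdhaf2 was 17.7 in MMP9_KO and 17.4 in Control. For complex V, Atpaf2 was 20.999 in MMP9_KO and 30.9 in Control, Tmem70 was 13.3 in MMP9_KO and 12.7 in Control, and Atpaf1 was 11.5 in MMP9_KO and 10.4 in Control. The difference between subunits and assembly factors was not tested.

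Among 11 genes of coenzyme Q synthesis and binding, 1 was lower by at least 2-fold, a share near the 9.58% of all compared genes, and none was higher, with a median of -0.32. None was lower with a pseudocount of 5 or after any centring. The lower gene was Coq10a, at 4.99 in MMP9_KO and 13.2 in Control, 2.64-fold lower (2.25 to 3.12), while Coq9 was 12.4 in MMP9_KO and 24.3 in Control and Coq4 was 8.79 in MMP9_KO and 5.64 in Control. None of 13 genes for protein import and cristae passed 2-fold, with a median of -0.43. Their lowest ratios were those of the import pore gene Tomm40 (25.0 in MMP9_KO and 44.1 in Control) and the cristae gene Chchd3 (30.5 in MMP9_KO and 49.97 in Control), and the highest was that of Tomm70a (311 in MMP9_KO and 298 in Control). Of 6 genes for nucleotide and phosphate carriers and outer membrane pores 2 were lower, beside 9.58% of all compared genes. None was higher, and the median was -0.78. Slc25a4, an ADP/ATP carrier, was 54.1 in MMP9_KO and 151 in Control, 2.79-fold lower (2.66 to 2.93). Slc25a3, which brings in phosphate for the ATP synthase, was 204 in MMP9_KO and 474 in Control, 2.33-fold lower (2.27 to 2.39). With equal sums and with length bins 1 of the 6 was lower, beside 6.09% and 6.86% of all compared genes. The pore gene Vdac3 was 33.0 in MMP9_KO and 32.1 in Control.

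The regulators of respiratory chain genes had a median log2 ratio of 0.077 over 11 compared genes. Past 2-fold, 2 regulators were lower, beside 9.58% of all compared genes, and none was higher, beside 4% of all compared genes. The lower ones work together. Ppargc1b, which encodes the coactivator PGC-1β, was 7.65 in MMP9_KO and 36.3 in Control, 4.75-fold lower (4.204 to 5.37). Esrra, which encodes the receptor ERRα, was 11.996 in MMP9_KO and 25.1 in Control, 2.10-fold lower (1.88 to 2.34). With a log2 ratio of -1.01 it lay just past the threshold, and 1 regulator in place of 2 was lower under each other scaling, each centring and a pseudocount of 5. The share of all compared genes that were lower under these settings lay between 5.42% and 7.14%. The related coactivator Ppargc1a had no read in either library. Of the rest, Nrf1 was 15.2 in MMP9_KO and 16.4 in Control, Gabpa was 47.2 in MMP9_KO and 44.8 in Control, and its partner Gabpb1 was 12.9 in MMP9_KO and 10.1 in Control, the highest ratio of the list. Tfam, which packs and transcribes mitochondrial DNA, was 27.9 in MMP9_KO and 22.5 in Control, while Polrmt, the mitochondrial RNA polymerase, was 8.34 in MMP9_KO and 14.5 in Control.

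Counting may have shifted some of these values. In GENCODE M21, 13 of the 40 genes had at least 1 pseudogene that resembled their transcript over 200 bases at 90% identity or more, with 9 for Cycs and 6 for Atp5h. Where such a copy had its own row and a level for comparison, its ratio lay near that of the member. Gm10108, which resembles Cycs, was 29.6 in MMP9_KO and 44.8 in Control, Gm10250, which resembles Atp5h, was 26.5 in MMP9_KO and 57.6 in Control, and Gm5436, which resembles Atp5o, was 84.2 in MMP9_KO and 133 in Control. The sources used here do not say how reads were shared between these rows, so the levels of Cycs, Atp5h and Atp5o are uncertain. Copies of the other members had no row, and how reads that match them were handled is not given either. Levels of those members, among them Atp5g1 and Cox7b with 4 such pseudogenes each, are thus uncertain too. Exon bases were shared with a gene on the opposite strand by 13 members, among them Ndufb5 with Mrpl47 over 616 bases and Atp5j with Gabpa over 397 bases. The use of strand is not given, so reads of such pairs cannot be told apart. The table pairs Ndufb8 with an identifier that M21 gives to an overlapping readthrough gene, Gm20538, so its row may count that locus.

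Transcript length and base composition moved with the ratio across all genes. The longest transcripts of the 40 genes had a median length of 1111 bases, beside 3026 for all compared genes, and a median GC content of 49.7%, beside 49.9%. Over compared genes Spearman's rho of the log2 ratio was -0.33 with GC content and 0.16 with length, and over the 40 members it was -0.28 and 0.054. These are descriptions across genes of the same libraries, which are not independent replicates. After centring in bins of length the median of the 40 was -0.62, of GC content -0.78 and of both -0.69, and with length bins 39 of 40 ratios stayed below 0.

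**Figure D4:**
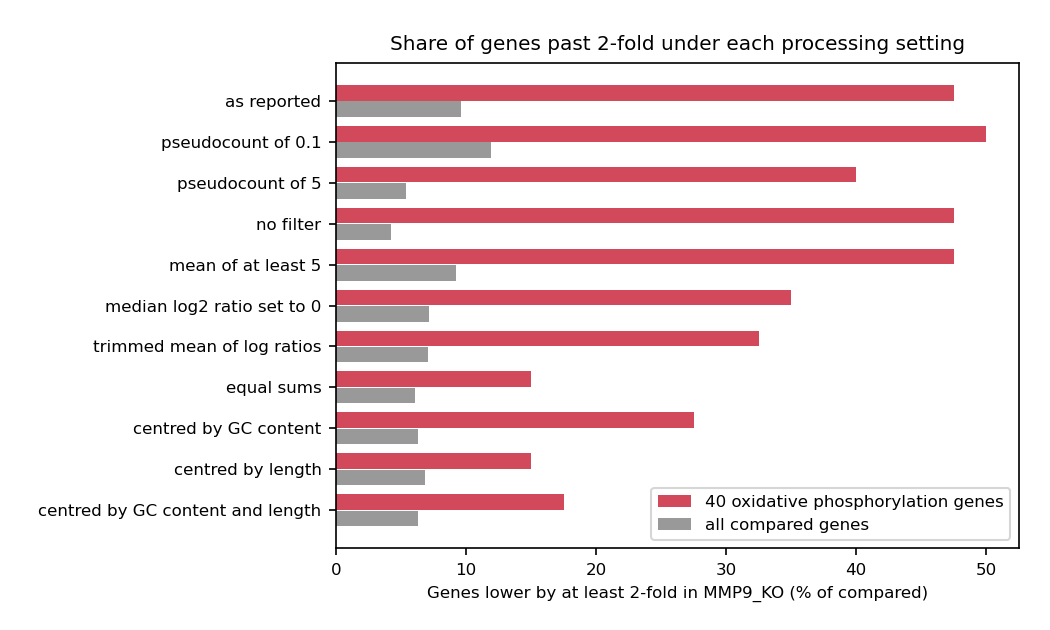
Share of genes lower by at least 2-fold in MMP9_KO, in percent of compared genes, for the 40 oxidative phosphorylation genes (red) and for all compared genes (grey) under each processing setting, with 1 library per group. The red bars run from 15% with equal sums and with centring by length to 50% with a pseudocount of 0.1, and the grey bars from 4.198% without a filter to 11.9% with a pseudocount of 0.1.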

How the data were processed

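A single table with log2 values of 26037 genes was deposited by the authors. TopHat and mouse build mm9 are named, without their roles, per the submitters' processing notes; the sources used here name no counting program, annotation or strand setting. Although the table is titled as RPKM, the values converted from log2 were whole multiples of 1 step per library for genes of any length (99.99% within 0.05 of a whole read in each), so they were treated as scaled read counts, and the lowest value, 0.9 of the step, was set to 0. Counting limits the precision; 3 reads correspond to 0.0713 in MMP9_KO and 0.0745 in Control. Reads are not independent molecules, so intervals cover counting error only.

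With 1 library per group no test was run. Ratios, calls and exact conditional (Clopper-Pearson) intervals were computed in Python 3.11.15 with scipy 1.17.1 and tested on simulated data. Members and lists were chosen with earlier results of these data known. Named beside the 40 members were, per list, the 2 lowest and the highest ratio, mitochondrially encoded genes, close paralogs, Mmp9, and Acp5, Ctsk, Adgre1 and Cd14; the regulators Nrf1, Gabpa, Tfam, Polrmt and Ppargc1a were added after their values were seen. Symbols and GC content came from GENCODE M21 (GRCm38), known for 96.2% of compared genes, and promoters from RefSeq. Centring used 20 bins, or 10 by 10 for both. The printed promoters and the motifs were chosen after the data were seen.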

Additional observations from a re-analysis of the deposited data

How the results depend on the processing

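No paired analysis was possible because each group was a lone library, which also precludes leaving one out. The scalings raised MMP9_KO by 0.18 (median ratio set to 0), 0.18 (trimmed mean) and 0.29 (equal sums) on the log2 scale. The number of the 40 genes lower by at least 2-fold was 6 with equal sums, 11 with GC centring, 6 by length and 7 by both, and between 13 and 20 under the other 6 alternatives. In complex I the count was 2 under each of the 3 scalings and 3 after centring by length and by both. In complex II it was 1 with equal sums and 2 after centring by length. In complex III it was 0 after each centring and with equal sums. In complex IV it was 2 with GC centring and with equal sums, and 0 after centring by length and by both. In complex V it was 1 under each scaling and centring. The shares of all compared genes were 7.14% with the median ratio set to 0, 7.11% with the trimmed mean and 6.09% with equal sums. With GC centring, length and both they were 6.28%, 6.86% and 6.31%. The median log2 ratio of the 40 was -0.80 with the median ratio set to 0, -0.80 with the trimmed mean, -0.70 with equal sums, and -0.78, -0.62 and -0.69 with GC centring, length and both. Among all compared genes, 603 were lower and 255 higher with a pseudocount of 5, 684 lower and 691 higher with equal sums, and 672 and 676 lower with GC centring and by both. Of 400 alternative values for single members 399 were below 0 and 1 was not (Ndufa2). All 55 alternative medians of complexes were below 0. Many of these signs were fixed beforehand. Any constant added to both levels leaves the lower library the lower one. No scaling run (at most 0.29) could lift even the highest reported ratio, -0.42 for Ndufa2, to 0. Only the centrings could have brought a member or a complex median to 0 or above. Settings that changed only the filter on low values gave each member its reported ratio again, so those values add no support. Ndufb5, Ndufb10 and Atp5g1 were lower by at least 2-fold under every setting run, 20 members under none, and 17 under some. Those 3 had the lowest reported ratios of the 40, too far past the threshold for any scaling run to undo. A pseudocount shrinks ratios of low genes and a scaling shifts all ratios, by construction; otherwise the cause was not tested.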
